A study of Homo sapiens with 30 samples.

Results

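Full-length ADAR2 was assayed in HEK 293T, a line of human embryonic kidney cells, with and without the guide RNA called GluR2 adRNA, and this account covers the 5 libraries of 30 in the series that hold that comparison. They expressed wild-type ADAR2 without and with the guide, ADAR2 (E488Q) without and with the guide, and the GluR2 adRNA alone, with 1 library each from a lipofectamine transfection, taken 60 h later. The members were chosen by their labels, and each library was read at all 382978 sites that the authors listed. At each site the table gives the share of reads that carry G in place of A, without read counts, so the depth behind a share is unknown and no interval can be given. The comparison asks whether giving full-length ADAR2 a guide changes how much it edits away from the guide's target. The control cells are 3 sequencing runs that the labels give as runs of 1 untransfected library, although at ADARB1 T375A run 4 held 79.5% and runs 2 and 3 held 0%, and p-values here measure the spread between libraries that are not labelled as separate cultures of 1 condition. The amount of deaminase made in each transfection was not measured, and with 1 library a side its part in a difference cannot be told apart from that of the guide.

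ADAR2, encoded by ADARB1, converts adenosine in double-stranded RNA to inosine, which is read as G after reverse transcription. Its 2 double-stranded RNA binding domains bring the catalytic domain to RNA duplexes, and the E488Q substitution in the catalytic domain is known to raise its activity. A GluR2 adRNA joins an antisense stretch, which pairs with a chosen transcript, to a hairpin modelled on the natural ADAR2 substrate in the glutamate receptor message GRIA2, and the hairpin is what recruits the full-length enzyme. Natural substrates such as FLNA, COPA and CYFIP2 need no guide to be edited.

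The labels name no target transcript, and the 3′ UTR of RAB7A, a Rab GTPase of late endosomes, is known as the target of this study's guides. The adenosine called the target here is the listed RAB7A site with the largest mean gain over both pairs, so its gain is a description, with no test. It lies at chromosome 3, position 128814202, on the + strand of GRCh38 (gene ENSG00000075785.12). Its surroundings are shown beside those of 4 of the sites that gained or lost most, so that the bases around them can be compared. The target, GCC2 and GOLGA3 share the letters GCTAG around the edited A. TMEM260 does not, nor do RAB2B, TAF8 and PRR11, other leading gains that are not shown. How often these letters occur over all listed sites was not counted. In each sequence, read 5′ to 3′ on the transcript strand from GENCODE 29 transcripts, capitals mark the edited A and its 2 neighbours.
RAB7A 3′ UTR target, chr3:128814188-128814216, + strand: tgggaaatccagcTAGcggcagtattctg
TMEM260 codon 38, a gain, chr14:56580018-56580038, + strand: ccgtggccgCAGtgttcacct
GCC2 3′ UTR, a gain, chr2:108508079-108508099, + strand: gcttgaggcTAGtgagctgtg
GOLGA3 3′ UTR, a gain, chr12:132769651-132769671, - strand: acaacaggcTAGggcacttca
VHL 3′ UTR, a fall, chr3:10151090-10151110, + strand: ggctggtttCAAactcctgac

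At the RAB7A target the share was 0% in ADAR2 without guide and 27.6% with it, 0% in ADAR2 (E488Q) without guide and 26.8% with it, and 0% with the GluR2 adRNA alone. The untransfected runs gave 0%, 0.606% and 1.75%. Both guided libraries were above the unguided and control libraries named here, and the 8 MCP-ADAR2 libraries (deaminase domains joined to the MS2 coat protein, with and without their own guide) had a mean of 11.6%. With guide the 2 forms of the enzyme were less than 1 point apart.

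Other adenosines close to the target stayed low. Of the 7 listed RAB7A sites within 50 nt of it, the 6 others held at most 2.43% in any of the 5 libraries, including the pair 8 and 9 nt upstream, which reached 2.43% and 2.42% in ADAR2 (E488Q) with guide. Further along the message the 2 forms differed. None of the 54 other listed RAB7A sites gained 10 points in the ADAR2 pair, where the largest gain was 3.26 points, while 4 did so in the E488Q pair. At RAB7A T64A the shares were 2.22% and 5.47% in ADAR2 without and with guide, and 17.1% and 39.4% in E488Q. At RAB7A R103R they were 0% and 0.318% in ADAR2, and 10.1% and 35.8% in E488Q. These coding sites were edited by E488Q without a guide, which the target was not.

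The guide went with more called sites and a higher mean share in both forms of the enzyme, but in ADAR2 most listed sites did not rise. In the ADAR2 pair 40.9% of listed sites were higher with guide and 16.7% lower, with a median difference of 0 points. In the E488Q pair 71.6% were higher and 8.45% lower, with a median of 1.67 points. A call in a library needs an adjusted p under 0.01 in the authors' deposited table and a share higher than in the mean of the untransfected runs. ADAR2 had 5760 called sites without guide (1.50% of those listed) in 1785 genes and 18556 with it (4.85%) in 3764 genes, a 3.22-fold difference. ADAR2 (E488Q) had 25726 (6.72%) in 4170 genes without guide and 125372 (32.7%) in 7559 genes with it, 4.87-fold. The GluR2 adRNA alone had 18 (0.00470%). The mean share over all listed sites was 1.18% and 2.15% in ADAR2 without and with guide, 2.78% and 8.03% in E488Q, and 0.146% with the guide alone, against 0.146% to 0.159% in the untransfected runs. No test between 2 single libraries was made of these totals, and 2 pairs cannot reach an exact sign-flip p under 0.5.

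**Figure D1:**
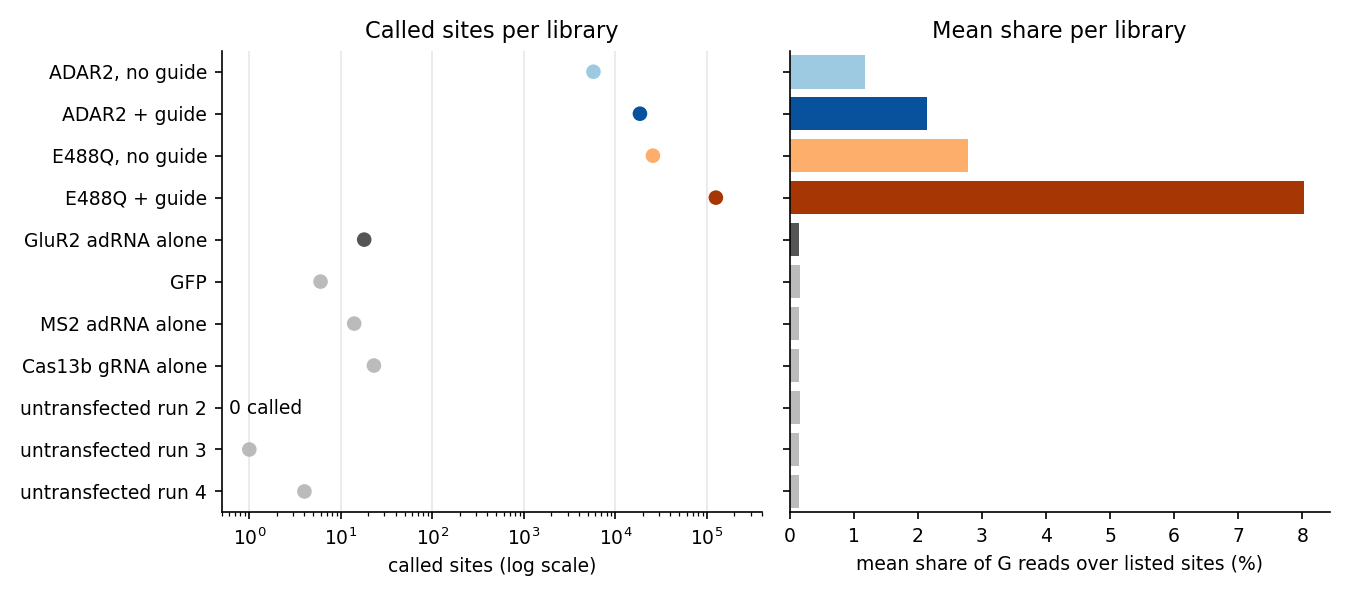
Called sites (left, log scale) and mean share of G reads over all listed sites (right, percent) in the 5 libraries and in the controls, 1 point or bar per library or sequencing run. The bars rise from 1.18% to 2.15% in ADAR2 and from 2.78% to 8.03% in E488Q, while every control lies below 0.17%.

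The share of sites that pass the call differed between libraries at 1 level of editing, so the counts of calls are not a measure of editing alone. Among sites with a share of 10% to 20%, 25.5% were called in ADAR2 without guide and 39.5% with it, 40.1% in E488Q without guide and 75.0% with it. The depth of each library, on which such a share depends, is unknown. The list itself was also drawn up partly from these libraries: 44466 of the listed sites were called in ADAR2 (E488Q) with guide and in no other deaminase library, against 752 for ADAR2 with guide, 374 for E488Q without and 107 for ADAR2 without. The comparison was therefore repeated on the 327697 sites called in an MCP or Cas13b library, which the full-length libraries had no part in listing. There the mean share was 0.840% and 1.62% in ADAR2, a 1.93-fold difference, and 2.01% and 5.85% in E488Q, 2.91-fold. At the 498 sites called in all 22 deaminase libraries it was 11.3% and 21.7% in ADAR2 and 18.9% and 39.6% in E488Q, or 1.93-fold and 2.09-fold.

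Most sites edited without guide were edited with it, at higher shares. Of the 5760 sites called in ADAR2 without guide, 5239 (91.0%) were also called with it, and these made up 28.2% of the guided calls. The median share of the 5239 was 15.0% without guide and 23.3% with it, and 82.8% of them were higher with it. In E488Q 24925 of 25726 (96.9%) were called in both, which was 19.9% of the guided calls, with medians of 13.0% and 27.8%, and 96.2% were higher with guide. The sites that changed most moved by far more than these medians. In the ADAR2 pair 9995 sites (2.61% of those listed) were at least 10 points higher with guide and 812 (0.212%) at least 10 points lower. In the E488Q pair 71305 (18.6%) were higher and 531 (0.139%) lower. When each library was scaled to a common mean over the 498 shared sites, with shares held to at most 100%, the split turned in ADAR2 to 5721 higher and 7951 lower and in E488Q became 18124 higher and 6115 lower. This scaling sets the mean of the 498 sites, which was higher with guide in both pairs, to 1 value in every library. It multiplied ADAR2 shares by 2.21 without and 1.14 with guide, and E488Q shares by 1.31 and 0.628. A site with a high enough share without guide could therefore not rise on scaled shares.

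Gains in ADAR2 were mostly gains in E488Q as well. Both pairs were at least 10 points higher at 7655 sites (2.00%), which is 76.6% of the ADAR2 gains and 10.7% of the E488Q gains, beside the 18.6% of all listed sites that gained in E488Q. At these sites the guide alone gave a mean of 0.299%, against 0.276% ± 0.0177 in untransfected cells (SD over 3 runs), and none of them was called with the guide alone. Both pairs were at least 10 points lower at 73 sites (0.0191%), which is 8.99% of the ADAR2 falls, beside the 0.139% of all listed sites that fell in E488Q. On scaled shares the shared gains were 1221 and the shared falls 2345. Of the 812 falls in ADAR2, 460 (56.7%) were gains of 10 points in E488Q. Over all listed sites the 2 differences had a Pearson r of 0.354 and a Spearman rho of 0.302, as a description across sites, which are not independent replicates and share 4 libraries.

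**Figure D2:**
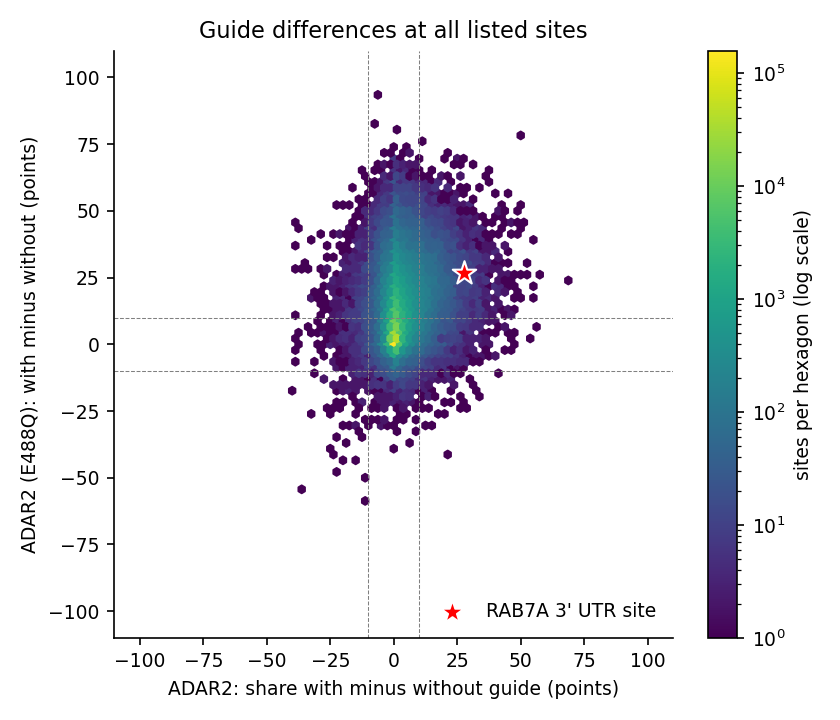
Share with guide minus share without guide at each listed site, in percentage points, for ADAR2 (horizontal axis) and ADAR2 (E488Q) (vertical axis); colour gives the number of sites per hexagon on a log scale and dashed lines mark 10 points either way. Most sites lie above 0 for E488Q, and the RAB7A target (star, 27.6 and 26.8 points) lies inside the cloud of other sites.

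The target did not stand apart from the off-target sites by the size of its gain. In the ADAR2 pair 618 other sites gained at least as many points as it did, and in the E488Q pair 13632 did. Fewer started from 0: of those 618 sites 63 were listed at 0 without guide, and of the 13632 sites 1474. The target and 17 other sites were called with guide in both pairs and listed at 0 in both libraries without guide. The sites that gained had the same median likeness to the target as all listed sites. Counted base by base in the same register over the 20 nt on each side, the median listed site matched the target at 10 of 40 flanking positions and the best at 24. Among the sites at least 10 points higher in both pairs the median was also 10 and the highest 21, and 0.0944% of them matched at 20 or more positions, against 0.0886% of all listed sites. The 3 closest, in JAK1, UBR3 and ARFIP2, each with 24 matches, held 0% in both ADAR2 libraries, and JAK1 reached 8.33% in E488Q with guide. This count sees only ungapped matches around the edited base.

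limma, fitted to arcsine square roots of all shares, tested each site over the 22 deaminase libraries in 11 pairs, with the spread between libraries taken from the 8 MCP pairs, with Benjamini-Hochberg adjustment over all 382978 sites and a threshold of 0.05. For the mean of both pairs 33433 sites (8.73%) rose and 113 (0.0295%) fell. In the E488Q pair 49651 (13.0%) rose and 231 (0.0603%) fell, and in the ADAR2 pair 600 (0.157%) rose and 166 (0.0433%) fell. Of the 600 rises in the ADAR2 pair 569 were at sites called in no MCP or Cas13b library, as were 165 of its 166 falls, so only 31 rises and 1 fall lay among the 327697 independently listed sites. For the mean of both pairs 17571 rises and 62 falls lay among them. All of these calls borrow their spread from the MCP pairs: fitted on the 4 full-length libraries alone, limma called 0 sites, with 18219 higher and 1429 lower at an unadjusted p under 0.05. Scaling to the common mean moved the median effect over all sites from 0.05 to 0.02 on the arcsine scale and gave 3208 higher and 1230 lower calls for the mean of both pairs, 840 and 1222 for ADAR2, and 4111 and 441 for E488Q.

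The guide effect was tested for a difference between the 2 forms and against the MCP fusions, whose guide is another one, MS2 adRNA. In limma 4646 sites (1.21%) had a larger effect in E488Q than in ADAR2 and 80 (0.0209%) a smaller one. The mean effect of the 2 full-length pairs was above that of the MCP pairs at 15314 sites (4.00%) and below it at 61 (0.0159%).

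Mean shares were higher with guide at every level of editing, and in fold terms the rise was smallest in the group with the highest shares. Grouping the independently listed sites by their mean share in the 8 MCP-ADAR2 libraries, which none of the 5 libraries entered, the 178772 sites under 1% went from 0.239% to 0.448% in ADAR2 (1.87-fold) and from 0.643% to 2.22% in E488Q (3.45-fold). In ADAR2 the fold was larger in the next groups, 2.11 at 1% to 2% and 2.08 at 2% to 5%, and in E488Q it was 3.18 and 2.99. The 12033 sites at 10% to 20% went from 4.07% to 7.50% (1.84-fold) and from 8.24% to 20.8% (2.52-fold). The 308 sites at 40% or more went from 22.2% to 30.3% (1.36-fold) and from 28.5% to 48.3% (1.69-fold). ADAR2 with guide lay below E488Q without guide in the lowest group, 0.448% against 0.643%, and above it in the highest, 30.3% against 28.5%. The guide alone stood at 0.0856% in the lowest group and 8.47% in the highest, where untransfected cells had 7.72%.

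**Figure D3:**
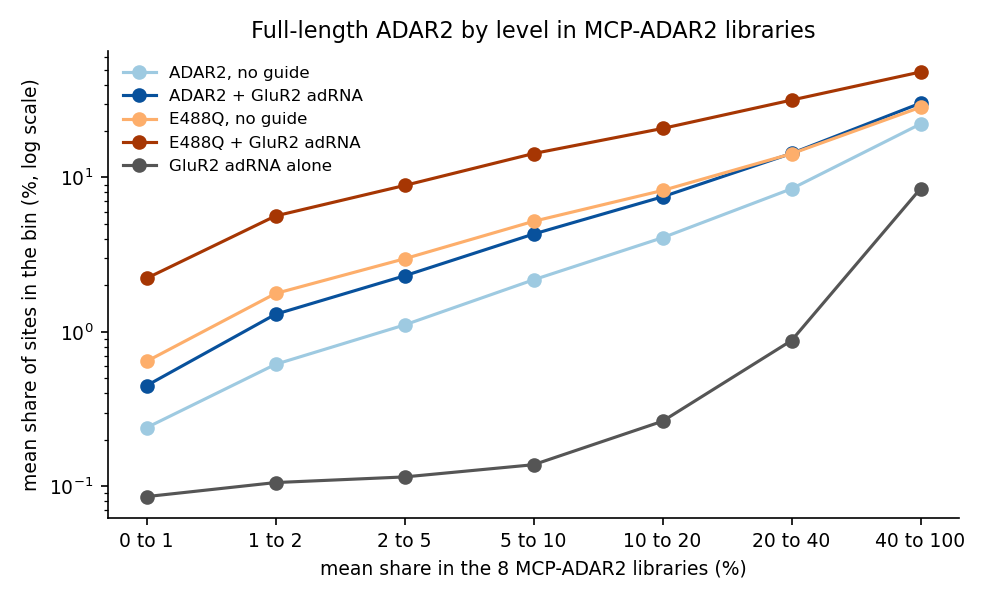
Mean share of G reads (percent, log scale) in the 5 libraries for sites grouped by their mean share in the 8 MCP-ADAR2 libraries (horizontal axis, percent). Each point is 1 library's mean over the sites of a group; the lines without and with guide lie closest in the group at the right, at 1.36-fold in ADAR2 and 1.69-fold in E488Q, and in ADAR2 they lie farthest apart at 1% to 2% (2.11-fold).

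The folds were also smallest at the highest shares when the level was read from the other form of the enzyme without guide. At the 939 sites with 50% or more in E488Q without guide, ADAR2 had 45.7% without and 49.7% with guide, 1.09-fold, and 39.4% of these sites were lower with guide. At the 667 sites with 50% or more in ADAR2 without guide, E488Q had 55.3% and 66.6%, 1.20-fold, and 22.0% of them were lower. At sites of 1% to 5% the corresponding folds were 2.31 and 2.89, and under 1% they were 2.02 and 3.91, so the ADAR2 fold was not largest in the lowest group.

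Of the 10 largest gains 7 lay in 3′ UTRs, which hold 29.4% of listed sites and 41.7% of those at least 10 points higher in both pairs. These 10 sites were taken as the largest mean gains among the 15071 sites in exons of exactly 1 protein-coding gene that were called with guide in both pairs, so their size is a description. Picking the largest changes, gains or falls, favours sites with few reads, where a share is least certain, and their read counts are unknown. At TMEM260 A38A (chromosome 14, position 56580028), a synonymous change, the share was 0% and 50% in ADAR2 without and with guide and 0% and 53.3% in E488Q. In the 3′ UTR of RAB2B, a Rab GTPase of the Golgi, it was 30.8% and 76.9% in ADAR2 and 42.9% and 100% in E488Q, with 5.26% for the guide alone (chromosome 14, position 21460901). The first started from 0 and the second was already edited without guide; that both forms gained follows in part from how the sites were chosen.

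In the 3′ UTR of GCC2, a golgin of the trans-Golgi, the shares were 10.3% and 47.2% in ADAR2 and 10.5% and 75.0% in E488Q. In the 3′ UTR of GOLGA3, another golgin, they were 4.76% and 53.3%, and 26.9% and 76.0%. In the 3′ UTR of TAF8, a subunit of the transcription factor TFIID, they were 4.35% and 40.7%, and 8.00% and 72.2%. The guide alone was at 0% at all 3 of these sites. At PPP1R10 E755E, in a nuclear regulator of protein phosphatase 1, the values were 13.3% and 39.4% in ADAR2 and 20.8% and 90.5% in E488Q. The others of the 10 were in PRR11, ICMT, which methylates prenylated proteins, UBE3B, a ubiquitin ligase, and VIPAS39, which acts in endosome sorting. All 10 rose in limma for the mean of both pairs, with effects of 0.51 to 0.80 and adjusted p-values of 1.7e-04 to 0.023. On scaled shares limma kept 3 of these calls, at TMEM260, PPP1R10 and ICMT, and lost 7, with adjusted p of 0.079 at PRR11 to 0.845 at VIPAS39, where the effect went from 0.52 to 0.10. With the spread of the 4 MCP-ADAR2 pairs alone limma lost TAF8 (adjusted p = 0.064), UBE3B (0.062) and VIPAS39 (0.110).

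The 10 largest falls were all in 3′ UTRs, of 6 genes, with several sites each in VHL and RNASEH1. In 3′ UTRs lie 29.4% of listed sites and 64.4% of those at least 10 points lower in both pairs. At 8 of the 10 falls the library with the guide alone was above 0%, and at most of the 10 untransfected runs were too. The falls were taken in the same way from 4375 sites called without guide in both pairs, of which only 351 (8.02%) had a lower mean with guide. In the 3′ UTR of VHL, the substrate receptor of the ubiquitin ligase for hypoxia-inducible factors, the share at chromosome 3, position 10151100, was 70.8% and 33.3% in ADAR2 without and with guide and 63.0% and 9.09% in E488Q. It was 5.71% with the guide alone and 4.26% to 8.93% in the untransfected runs. In the 3′ UTR of RNASEH1, which degrades the RNA of RNA-DNA hybrids, the site at chromosome 2, position 3545012, gave 81.5% and 61.5% in ADAR2 and 100% and 57.1% in E488Q, with 11.5% to 27.6% in the untransfected runs. At RBM8A, a subunit of the exon junction complex, the shares were 44.4% and 17.4%, and 38.9% and 15.4%, with 0% for the guide alone. At all 10 both guided libraries lay below both unguided ones, closest at KRR1, a factor of ribosome assembly, where E488Q with guide had 63.6% and ADAR2 without it 64.7%.

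Of these 10 falls 6 passed in limma for the mean of both pairs, namely RNASEH1 at 3545012 (adjusted p = 0.003) and 3545047 (0.041), VHL at 10151100 (0.007) and 10151101 (0.033), RBM8A (0.012) and APOBEC3C (0.044), which codes for a cytidine deaminase. The others, with adjusted p of 0.078 to 0.18, were in ZNF655, KRR1, VHL and RNASEH1. With the spread of the 4 MCP-ADAR2 pairs alone limma lost VHL at 10151101 (adjusted p = 0.093), RBM8A (0.069) and RNASEH1 at 3545047 (0.168).

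**Figure D4:**
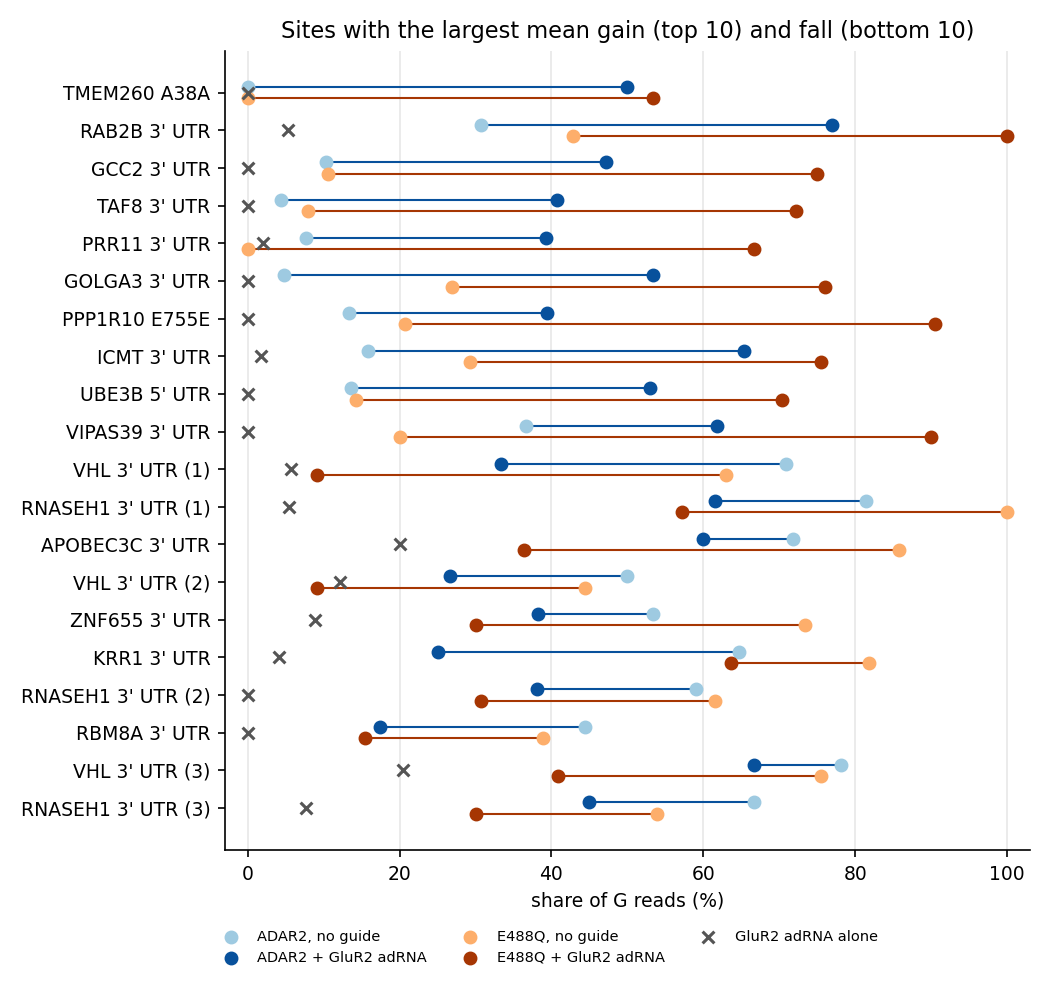
Share of G reads (percent) in the 5 libraries at the 10 sites with the largest mean gain and the 10 with the largest mean fall with guide; lines join the libraries without and with guide of 1 form of the enzyme, and crosses give the guide alone. Numbers in brackets tell sites of 1 gene apart; the guided libraries reach 39.3% or more at every gain, and the crosses lie at 20.5% or less.

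Taken pair by pair, the leading sites were not the same, and this choice also favours sites with few reads. In the ADAR2 pair the 5 largest gains were at the 5′ UTR of KLHDC4 (20.0% to 90.0%), AMOTL2 T70A (6.25% to 62.5%) and the 3′ UTRs of RAB2B (21.4% to 76.9% at position 21460331), TOLLIP (0% to 54.3%) and CYTH1 (13.9% to 67.4%). In E488Q the same sites went from 23.8% to 47.1%, 0% to 6.90%, 43.8% to 81.8%, 31.6% to 50% and 52.2% to 54.8%. In the E488Q pair the 5 largest gains were at the 3′ UTR of ASB7 (5.26% to 100%), a noncoding exon of XRCC2 (11.5% to 93.8%), the 3′ UTRs of MNT (12.5% to 93.3%) and RAB2B (8.33% to 86.7% at position 21460886), and UBE3B Q410R (0% to 75.0%). In ADAR2 the first 3 of these were 6.25% and 0%, 31.8% and 24.4%, and 25.0% and 25.0%, so they did not gain there. Their difference between the 2 forms passed in limma, with adjusted p of 0.007 for ASB7, 0.006 for XRCC2 and 0.047 for MNT. These sites were picked for the size of their E488Q gain and set apart here for having none in ADAR2. That choice favours a large difference, so the p-values are a description.

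The 5 largest falls in the ADAR2 pair were at 3′ UTR sites of KRR1 (2 sites), GINM1, LYRM2 and PEX26, and those in the E488Q pair at sites of VHL, APOBEC3C, ZNF655, RNASEH1 and IFNAR1, a subunit of the type I interferon receptor. GINM1, PEX26 and IFNAR1 went opposite ways in the 2 pairs. GINM1 was at 52.4% and 13.0% in ADAR2 without and with guide and at 8.33% and 45.5% in E488Q. PEX26, which codes for a peroxisome assembly factor, was at 95.5% and 57.1% in ADAR2 and at 50% and 78.3% in E488Q. IFNAR1 was at 40% and 60.9% in ADAR2 and at 65.2% and 23.1% in E488Q. None of the 3 differences passed in limma (adjusted p of 0.088, 0.055 and 0.098). At KRR1, position 75496309, ADAR2 had 56.2% and 16.7% and E488Q 60.0% and 61.5%.

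Sites near Alu-like sequence had smaller folds with guide and a larger share of falls. Alu repeats are abundant in 3′ UTRs and introns, and inverted copies pair into duplexes that ADARs edit. The 2 words searched, chosen after the falls were seen, were TGTAATCCC and GAGGCTGAG, on both strands, within 100 nt of the site on its transcript, and 2.23% of listed sites (8555) had 1. They were at 7.33% and 8.43% in ADAR2 without and with guide (1.15-fold) and at 9.65% and 17.9% in E488Q (1.85-fold), while all other sites had 1.93-fold and 2.98-fold. The guide alone gave 1.24% and untransfected cells 0.862% there. Gains were not rarer there: 4.48% were at least 10 points higher in both pairs, against 1.94% of other sites. In the ADAR2 pair 3.37% of them fell by 10 points or more, against 0.140% of other sites. They made up 43 of the 73 sites that fell in both pairs (58.9%). A fall of 10 points needs a share of at least 10% without guide, and other sites had a mean of 1.04% in ADAR2 without guide. These shares were not matched for level, and the words were chosen after the falls were seen, so the shares are no test. Restricted to independently listed sites the folds were 1.26 and 1.94 near the words and 2.00 and 2.96 elsewhere. Of the 10 largest falls 6 had a word nearby and of the 10 largest gains 2, which is no test, since the falls were seen before the words were chosen. Of the sites from which the falls were taken 16.2% had a word, against 6.97% of those for the gains. Of the former 26.6% were lower with guide where a word was near and 4.44% where none was. The absence of these letters does not show that a site lies outside a repeat.

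The 622 sites with 5% or more in untransfected cells had a lower mean with guide in ADAR2 and a higher one in E488Q. Their mean share was 46.4% and 44.0% in ADAR2 without and with guide and 42.7% and 51.5% in E488Q, with 21.3% for the guide alone and 19.1% in untransfected cells. In limma 52 of them (8.36%) rose and 16 (2.57%) fell for the mean of both pairs.

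At several natural recoding sites the 2 forms of the enzyme moved apart. These are codons that ADARs are known to edit in normal tissue, and of the 17 natural substrates listed 12 had listed sites. COG3 I635V, in a subunit of the Golgi tethering complex, had 73.7% without and 37.5% with guide in ADAR2, and 44.0% and 75.0% in E488Q. TMEM63B Q619R, in a mechanosensitive channel, had 57.1% and 30.4% in ADAR2, and 40.5% and 77.8% in E488Q. FLNA Q2341R, in filamin A, an actin crosslinker, had 75.0% and 57.3%, and 54.9% and 76.6%. COPA I164V, in a coat protein of Golgi vesicles, had 39.5% and 27.3%, and 25.8% and 35.9%. At all 4 the share was lower with guide in ADAR2 and higher with guide in E488Q, although on scaled shares, held to 100%, all 4 were lower with guide in E488Q as well, by 4.33 to 24.0 points. At FLNA this fall was fixed by the scaling factors, 1.31 without and 0.628 with guide in E488Q.

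The others did not follow that pattern. CYFIP2 K320E, in a regulator of actin assembly, was higher with guide in both, at 62.7% and 79.4% in ADAR2 and 55.6% and 72.7% in E488Q. GIPC1 T62A had 51.9% and 59.7%, and 58.9% and 82.5%. On scaled shares both sites were lower with guide in both pairs, but at their shares without guide the scaling factors allowed no rise. CCNI R75G, in a cyclin, had 3.53% and 10.4%, and 16.5% and 46.9%, and AZIN1 S367G, in the antizyme inhibitor, had 2.63% and 14.7%, and 5.67% and 26.5%. BLCAP Q5R was lower with guide in both, at 9.33% and 8.86%, and 18.6% and 13.9%. The guide alone had 9.76% at COG3 and at most 3.85% at the 8 others.

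For the mean of both pairs CYFIP2 (adjusted p = 0.007), CCNI (0.018) and AZIN1 (0.014) rose in limma, although on scaled shares the CYFIP2 effect turned negative (-0.29) and limma lost the calls at CCNI (0.08, adjusted p = 0.549) and AZIN1 (0.16, adjusted p = 0.174). With the spread of the 4 MCP-ADAR2 pairs alone limma also lost CCNI (adjusted p = 0.090) and AZIN1 (0.060). None of the 4 sites with opposite moves passed the limma test of E488Q minus ADAR2, with effects of 0.24 to 0.70 and adjusted p of 0.061 for TMEM63B, 0.156 for COG3, 0.181 for FLNA and 0.499 for COPA. On scaled shares the factors allowed no rise at CYFIP2. These 9 sites were picked as the known recoding sites after their values were seen. In these genes 383 amino acid changes were called in at least 1 of the 5 libraries, 222 of them in SON. Of the 383, 268 were higher with guide in ADAR2 and 372 in E488Q. That call can itself come from a guided library, which favours a gain. Of all listed sites 40.9% were higher with guide in ADAR2 and 71.6% in E488Q. Of sites called in both libraries of a pair 82.8% and 96.2% were higher. The counts over the 383 can therefore not be read as particular to natural substrates.

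**Figure D5:**
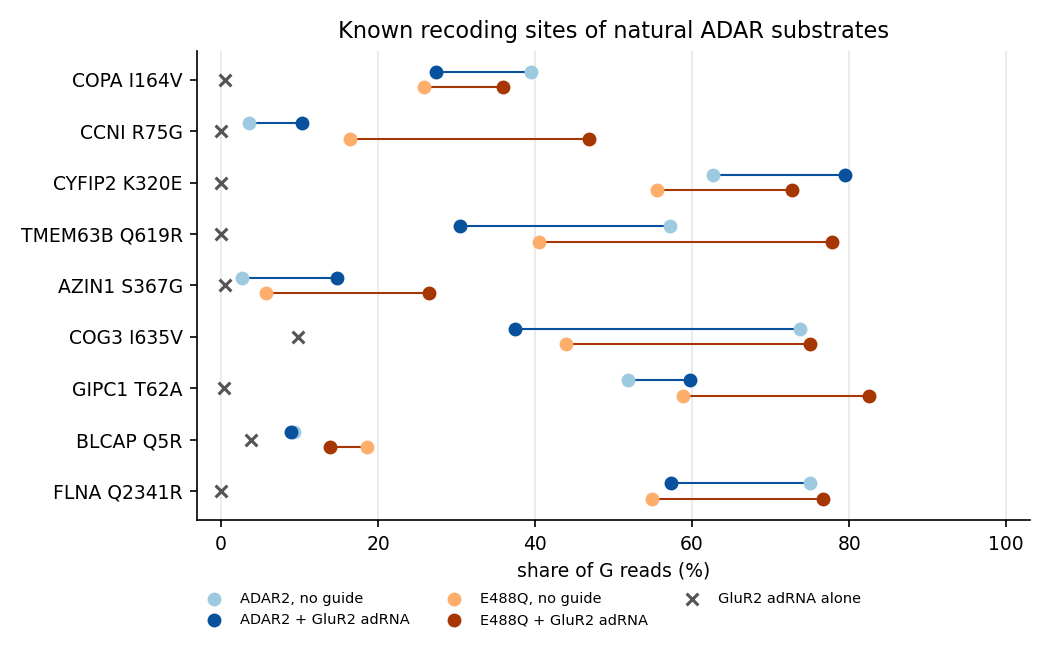
Share of G reads (percent) in the 5 libraries at 9 known recoding sites of natural ADAR substrates; lines join the libraries without and with guide of 1 form of the enzyme, and crosses give the guide alone. COPA, TMEM63B, COG3 and FLNA move to the left with guide in ADAR2 and to the right in E488Q.

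By position in the message, gains were more frequent in untranslated regions than in coding sequence. The share of sites at least 10 points higher in both pairs was 1.30% in coding sequence (3204 of 245863), 2.84% in 3′ UTRs and 4.94% in 5′ UTRs, and among independently listed sites 0.980%, 2.11% and 3.80%. In fold terms coding sequence was highest, with mean shares 2.12-fold and 3.19-fold higher with guide for ADAR2 and E488Q, beside 1.89-fold and 2.37-fold in 5′ UTRs and 1.62-fold and 2.77-fold in 3′ UTRs. Introns, with 1454 sites, had 1.35-fold and 2.10-fold, and noncoding exons 1.51-fold and 2.41-fold. In coding sequence changes that alter the protein and synonymous ones were alike, at 2.13-fold and 2.12-fold in ADAR2 and 3.17-fold and 3.28-fold in E488Q, and the 840 stop codon adenosines had 2.00-fold and 3.04-fold. In limma 6.94% of coding sites, 11.4% of 3′ UTR sites and 13.5% of 5′ UTR sites rose for the mean of both pairs, beside 8.73% of all.

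By neighbouring base the fold with guide lay between 1.60 and 1.92 in ADAR2 and between 2.64 and 3.21 in E488Q. ADARs are known to disfavour a G 5′ of the edited base and to favour one 3′ of it. Sites with a 5′ G had means of 0.868% and 1.58% in ADAR2 (1.82-fold) and 2.91% and 7.88% in E488Q (2.70-fold), and those with a 5′ U had 1.11% and 2.03% (1.84-fold) and 2.49% and 7.92% (3.18-fold). Sites with a 3′ G had 1.31% and 2.51% (1.92-fold) and 2.91% and 8.33% (2.86-fold), and those with a 3′ A 0.846% and 1.35% (1.60-fold) and 2.04% and 6.49% (3.18-fold). Of the sites at least 10 points higher in both pairs, 70.8% had a 3′ G, which 58.2% of all listed sites have, and 7.26% a 5′ G, which 12.2% have. UAG triplets, the context of the RAB7A target, gained 10 points in both pairs at 3.25% of their sites, beside 2.00% of all listed sites. CAG triplets were close to this at 3.05%, while AAG had 1.92% and GAG 1.45%.

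Gains were spread over many genes. Listed sites lay in 9285 genes. In 2826 protein-coding genes at least 1 site was 10 points higher in both pairs, 1371 of these genes had exactly 1 such site, and 57 had 10 or more. The 5 genes named next were picked for the highest counts, which depend on how many sites of a gene are listed. SON, a splicing cofactor with a long repetitive coding sequence, had 26 of 438 listed sites (5.94%), beside 2.00% of all listed sites. The mean share in SON was 4.06% and 6.79% in ADAR2 and 7.41% and 16.1% in E488Q. FBRS had 22 of 283 (7.77%), and HCFC1, a cofactor of chromatin regulators, 22 of 598 (3.68%). TOB2, a regulator of deadenylation, had 22 of 139 (15.8%), and KMT2B, a histone H3 lysine methyltransferase, 21 of 178 (11.8%). At the TOB2 3′ UTR site with the largest mean gain the shares were 17.4% and 63.7% in ADAR2 and 28.8% and 71.4% in E488Q. At KMT2B K468R they were 26.1% and 57.1%, and 45.0% and 85.7%.

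Gene groups near the target or the guide's origin were read against all listed sites, of which 8.73% rose and 0.0295% fell in limma for the mean of both pairs. None of the 18 ionotropic glutamate receptor genes, GRIA2 among them, had a listed site. The 35 Rab GTPases had 1142 listed sites, of which 147 (12.9%) rose and 0 fell. Their mean shares were 1.06% and 2.43% in ADAR2 and 3.32% and 9.84% in E488Q. Of the 23 genes of the RAB7 pathway, among them its effector RILP and subunits of the HOPS and retromer complexes, 20 had 655 sites, of which 70 (10.7%) rose and 0 fell. On scaled shares 14 Rab sites were higher and 1 lower and 7 pathway sites higher and 0 lower.

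The 17 natural substrates had 225 of 1750 sites (12.9%) that rose and 1 that fell, but on scaled shares 20 rose and 17 fell. The 16 genes of double-stranded RNA binding proteins had 130 of 1433 (9.07%) that rose and 0 that fell, against 6 and 7 on scaled shares, where the mean difference in the ADAR2 pair turned to -0.333 points. MALAT1 and NEAT1, long RNAs kept in the nucleus, had 46 of 128 sites (35.9%) that rose and 0 that fell, and means of 2.01% and 4.64% in ADAR2 and 5.05% and 18.9% in E488Q; on scaled shares 17 were higher and 0 lower. The 82 cytosolic ribosomal protein genes moved least, with 360 of 6301 sites (5.71%) that rose and 2 that fell, and means of 1.43% and 1.77% in ADAR2 and 2.32% and 4.25% in E488Q. On scaled shares their direction turned, with 19 higher and 73 lower.

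The guide alone gave few calls, and nearly all of them were shared with other controls. Of its 18 called sites, in 13 genes, 16 were also called with the Cas13b gRNA alone and 12 with the MS2 adRNA alone, and 17 in at least 1 of these or GFP. None was 10 points higher with guide in both pairs. In the 5′ UTR of MARCKSL1, an actin-binding protein, the site at chromosome 1, position 32336118, had 35.9% with the guide alone and 26.4% to 34.2% in the 4 full-length libraries, against 12.3%, 16.2% and 20.1% in the 3 runs of the untransfected library. GFP had 32.8% there. The untransfected runs thus differed among themselves at this site, and all lay below these transfected libraries. Other transfected libraries did not stand above the runs in this way. The 16 MCP libraries reached at most 20.7%, and the 8 MCP-ADAR2 libraries had a mean of 18.6%.

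At EEF1A1 K20R, in a translation elongation factor whose gene has near-identical copies, the share was 0.219% and 1.63% in ADAR2 without and with guide and 0.196% and 1.24% in E488Q. It was 0.946% with the guide alone, 1.26% with the MS2 adRNA alone, 0.726% with the Cas13b gRNA alone and 0.134% with GFP. It rose in limma (0.07, SE 0.02, adjusted p = 0.040). At PHGDH T329A, in an enzyme of serine synthesis, the shares were 0.281% and 1.03% in ADAR2, 0.472% and 2.63% in E488Q, and 1.51%, 0.480% and 0.461% with the 3 guides alone in the same order, and limma gave an adjusted p of 0.204. At both sites all 3 guides alone were above the untransfected runs. At 2 sites in ADARB1 itself, the gene of the transfected enzyme, shares were high with each of the 3 guides alone and low in the 4 full-length libraries. At ADARB1 T375A the guide alone had 88.9%, the MS2 adRNA alone 92.5%, the Cas13b gRNA alone 83.1% and untransfected run 4 79.5%, while runs 2 and 3 and GFP had 0% and the 4 full-length libraries at most 0.305%. At chromosome 21, position 45176646, the guide alone had 62.7% and the full-length libraries at most 0.12%. Reads of ADARB1 in transfected cells can come from the construct as well as from the gene, and what part that has in these values was not tested.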

How the data were processed

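The deposited tables give, per the file headers and their values, a fraction (0 to 1) for each site and library, read as the part of the reads that carry G, and the authors' adjusted p-values for the same sites. Which test and reference gave them is not given in the sources used here. STAR 2.6.0c, bcl2fastq 2.18.0.12, SAMtools and the build GRCh38.p12 are named in the submitters' processing notes. Libraries were made from 300 ng of poly(A) RNA and read as 100 bp pairs, per the labels' protocols. Depth is unknown, so counting error has no interval. The table of fractions has 1 column without a sample name, which was left out, and with it untransfected run 1.

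Columns were matched to samples by the names in the headers. Shares were compared within pairs (ADAR2 with against without guide, E488Q likewise) as differences in percentage points. limma 3.58.1 (R 4.3.3) was fitted to arcsine square roots of the shares in 22 deaminase libraries with 11 pair blocks, guide effects for MCP, Cas13b, ADAR2 and ADAR2 (E488Q), and an intensity trend. Its 7 residual degrees of freedom all come from the MCP pairs, and the full-length libraries are assumed to vary like them. It was tested on simulated data. Annotation used GENCODE 29, bedtools 2.31.1 and Python 3.11.15; 99.9% of 352939 sites in exons of 1 gene were A on the transcript strand, and 27757 sites overlap several genes, whose strand cannot be told. The members and lists were chosen with earlier results of these data known. Named sites were the 10 largest mean gains and falls over both pairs and the 5 largest in each, in exons of 1 protein-coding gene and called in the libraries on the higher side, with the RAB7A sites within 50 nt of that gene's largest mean gain, which is called the target, amino acid changes in natural substrates (given as counts, with the known sites named) and the 5 genes with most shared gains. Alternatives are given in the closing section.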

Additional observations from a re-analysis of the deposited data

Results flagged for a closer look

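Results stand here because a test of the difference between 2 guide effects passed in limma (adjusted p under 0.05); effects are on the arcsine scale. The effect differed between E488Q and wild-type ADAR2 at 4726 sites, and between the full-length pairs and the MCP fusions, which carry another guide, at 15375 sites.

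E488Q minus wild type was 0.48 at PPP1R10 E755E, 1.59 at ASB7, 1.05 at XRCC2 and 0.95 at MNT. Full length minus MCP was 0.70 at TMEM260 A38A, 0.72 at RAB2B (position 21460901), 0.52 at GCC2, 0.68 at TAF8, 0.72 at PRR11, 0.60 at GOLGA3, 0.48 at PPP1R10, 0.51 at ICMT, 0.58 at the UBE3B 5′ UTR, 0.51 at VIPAS39, 0.57 at KLHDC4, 0.52 at ASB7, 0.33 at XRCC2, 0.82 at RAB2B (position 21460886) and 0.53 at UBE3B Q410R. At natural recoding sites it was 0.18 at CYFIP2 K320E and 0.25 at AZIN1 S367G. It was negative at VHL (-0.53 at position 10151100), RNASEH1 (-0.48 at position 3545012) and RBM8A (-0.24). These sites other than CYFIP2 and AZIN1 were picked for large differences in the full-length pairs, so the sizes and the passing of the test are a description.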

How the results depend on the processing

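The fold in called sites, as a log2 ratio of 1.69 in the ADAR2 pair and 2.28 in the E488Q pair, moved by under 0.3 under stricter or looser thresholds, 1 gene per site or independently listed sites, and leaving out each untransfected run gave 1.69 to 1.69 and 2.28 to 2.28. The guide alone kept between 13 and 21 calls.

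The mean difference of 0.970 and 5.25 points became 0.956 and 5.22 in exons of 1 gene that is not a pseudogene, 2.45 and 12.6 at sites with a mean share of at least 2%, and 10.5 and 20.7 at the 498 sites called in all 22 libraries. At sites called in an MCP or Cas13b library, a choice made after seeing the data, it was 0.783 and 3.84.

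Sites past the difference, given as higher and lower, were for ADAR2, E488Q and both pairs 26094 and 2805, 120639 and 1746, and 21744 and 220 at 5 points; 2039 and 145, 27516 and 91, and 1161 and 13 at 20 points; 5721 and 7951, 18124 and 6115, and 1221 and 2345 on scaled shares; and 6188 and 281, 41106 and 261, and 4720 and 16 at independently listed sites.

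limma's counts depended on the setting. Shares without the arcsine gave 83974 higher and 411 lower for the mean of both pairs, 6488 and 482 for ADAR2, 99552 and 569 for E488Q, 58180 that differed between the 2 pairs and 73012 that differed from MCP. Scaled shares gave 3208 and 1230, 840 and 1222, 4111 and 441, 2218 and 2972. With a mean share of at least 2% there were 52783 and 187, 1162 higher for ADAR2, 8380 and 32799. The spread of the 4 MCP-ADAR2 pairs alone gave 2035 lower for the mean, 4242 and 1927 for ADAR2, 1585 lower for E488Q and 16446 that differed between pairs. Without a trend ADAR2 had 367 and 65. The 4 full-length libraries alone gave 0 and 0, in a fit with 1 residual degree of freedom. Independently listed sites held 17571 and 62, 31 and 1, 27668 higher for E488Q, 798 and 6099. The cause of these shifts was not tested.

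Of 45 named sites 29 passed for the mean of both pairs, and 18 of the 45 lost their call on scaled shares, 15 with the MCP-ADAR2 spread, 29 with 4 libraries and 1 without a trend. On scaled shares the effect reversed at GINM1 (-0.47), CYFIP2 (-0.29), TMEM63B (-0.49), GIPC1 (-0.43) and FLNA (-0.44), and without the arcsine at GINM1 (-0.011). At CYFIP2, GIPC1 and FLNA the scaling factors allowed no rise. The pair blocks in limma join libraries with and without guide of 1 construct. A block by replicate number could not be fitted, since the labels give the full-length groups 1 library each and no numbers.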
